A study of Homo sapiens with 40 samples.

Results

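AGR2, SPDEF and 8 further genes of the luminal secretory programme of breast and airway epithelium were followed in MDA-MB-231 cells given an inhibitor of the mevalonate pathway. The set was drawn up by gene symbol and holds AGR2, AGR3, SPDEF, FOXA1, GATA3, ELF3, TFF1, TFF3, ESR1 and MUC1. These are 10 of the 18417 genes that could be named on the array, carried by 11 of its 33297 probe sets. The genes were chosen with their treated minus control differences in all 6 treated groups already known. Those differences are therefore given as a description, with no p-value, and the calls counted below follow from the choice.

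MDA-MB-231 is an established breast cancer line that lacks the estrogen receptor and has many mesenchymal features. Fluvastatin, a statin, inhibits HMG-CoA reductase, and zoledronate, a bisphosphonate, inhibits farnesyl diphosphate synthase further down the same pathway. RNA from whole cultures was hybridised to 40 Affymetrix arrays, 4 independent replicates in each of 10 groups. The arrays came in 2 sets that the labels name lot I and lot II, with no word on what a lot is.

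In lot I, cells received fluvastatin at 2 µM for 12 h or 24 h, or zoledronate at 30 µM for 12 h or 24 h, and control cells received the solvent for 12 h or 24 h. In lot II, cells received zoledronate at 30 µM for 48 h or at 100 µM for 24 h, each beside solvent-treated control cells of the same time. Both drugs at 12 h and at 24 h in lot I were thus set against the same control arrays. Each treated array was paired with the control array of the same lot, time and replicate number, since the study design pairs samples by the day of measurement. RNA of a whole culture cannot tell fewer cells of one kind from less RNA per cell. One cell line was used, so the replicates show the spread between its cultures.

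AGR2 and AGR3 are protein disulfide isomerase relatives of the endoplasmic reticulum, and AGR2 is needed for the folding of mucins in the mouse gut. SPDEF is an ETS family transcription factor of goblet cells and luminal breast epithelium, and ELF3 is another ETS factor restricted to epithelia. FOXA1, GATA3 and the estrogen receptor ESR1 form the transcription factor core of the luminal estrogen-responsive state, of which TFF1 and TFF3, small secreted trefoil peptides, and MUC1, a mucin of the cell surface, are known products.

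The upstream sequences of 4 members are shown because these genes include the 3 with the largest differences, AGR2, SPDEF and ELF3, and the neighbour of AGR2. Each sequence runs 5′ to 3′ on the strand of its gene, from 250 bases before the RefSeq transcript start to 50 after it, in the build GRCh38.p14. Capitals mark GGAA, the core bound by ETS factors such as SPDEF and ELF3, or its reverse complement TTCC. AGR2 lies at chr7:16804950-16805249 on the minus strand, AGR3 at chr7:16881934-16882233 on the minus strand, SPDEF at chr6:34556280-34556579 on the minus strand and ELF3 at chr1:202010337-202010636 on the plus strand.
AGR2: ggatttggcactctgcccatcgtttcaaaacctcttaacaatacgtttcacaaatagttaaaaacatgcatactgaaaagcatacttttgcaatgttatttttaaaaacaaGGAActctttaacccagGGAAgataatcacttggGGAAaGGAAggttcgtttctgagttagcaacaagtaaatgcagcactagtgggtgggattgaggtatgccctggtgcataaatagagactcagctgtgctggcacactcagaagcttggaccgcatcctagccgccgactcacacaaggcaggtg
AGR3: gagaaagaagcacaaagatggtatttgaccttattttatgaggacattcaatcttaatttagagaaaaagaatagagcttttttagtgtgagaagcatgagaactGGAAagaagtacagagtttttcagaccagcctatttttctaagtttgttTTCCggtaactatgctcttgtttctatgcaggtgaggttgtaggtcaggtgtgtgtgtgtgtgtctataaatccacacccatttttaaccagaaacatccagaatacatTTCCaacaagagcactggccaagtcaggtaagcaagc
SPDEF: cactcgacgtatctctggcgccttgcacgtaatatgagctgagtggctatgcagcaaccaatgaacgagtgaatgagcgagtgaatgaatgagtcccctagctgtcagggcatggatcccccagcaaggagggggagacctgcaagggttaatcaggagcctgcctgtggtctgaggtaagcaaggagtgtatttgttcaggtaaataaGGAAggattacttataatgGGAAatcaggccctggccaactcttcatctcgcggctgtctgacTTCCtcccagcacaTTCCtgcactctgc
ELF3: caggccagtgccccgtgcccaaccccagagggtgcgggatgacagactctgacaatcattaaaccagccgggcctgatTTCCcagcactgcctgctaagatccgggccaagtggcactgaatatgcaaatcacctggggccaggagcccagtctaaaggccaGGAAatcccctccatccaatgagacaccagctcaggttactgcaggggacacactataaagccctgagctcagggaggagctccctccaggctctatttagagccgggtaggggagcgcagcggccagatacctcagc
The window of AGR2 held 4 GGAA sites on either strand, that of AGR3 3, that of SPDEF 4 and that of ELF3 2. Of all 35116 RefSeq promoter windows of that length, 95.5% held at least 1 such site, so the presence of the letters does not set these 4 apart. AGATAA, of the kind bound by GATA3 and its relatives and found in 10.3% of windows, occurred at 1 position upstream of AGR2 and at none in the other 3. TATAAA, found in 11.5% of windows, occurred once in AGR3 and once in ELF3, and TGTTTAC, a FOXA type motif found in 3.42% of windows, in none of the 4. All 4 motifs were read on both strands, and the AGATAA of AGR2 starts on the last base of a GGAA. A match of letters is not a binding site. AGR2 and AGR3 are neighbours on chromosome 7, and TFF1 and TFF3 lie on chromosome 21 with TFF2 between them.

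Values are log2 signals made by RMA (robust multi-array average), in which a step of 1 is a doubling and levels of different probe sets cannot be compared. As a yardstick for background, 341 olfactory receptor genes were taken. The 95th percentile of their group means lay between 5.32 and 5.67, and a gene at or under it was called near background in that group. By this measure AGR3 and ESR1 were near background in 10 of 10 groups. AGR2 was near background in 6 of 10 groups: all 4 control groups, and both drugs at 12 h. The other 7 members were above it in every group. Of the cell line's own markers, CDH1, the cadherin of epithelial junctions, was near background in all 10 groups, whereas the mesenchymal filament VIM averaged 12.18 to 12.46 and the epithelial keratins KRT8 and KRT18 averaged 10.86 to 11.82 and 11.55 to 11.76.

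The 3 genes AGR2, SPDEF and ELF3 had the largest differences of the set. AGR2 was near background in the control cells of all 3 comparisons named next. With control arrays under background raised to it, AGR2 was 2.84-fold higher after fluvastatin at 24 h, 2.55-fold higher after 30 µM zoledronate at 48 h and 3.48-fold higher after 100 µM zoledronate at 24 h. The folds from the signals as they stand were 3.63, 2.89 and 5.61. SPDEF was 3.16-fold, 1.48-fold and 4.69-fold higher in the same comparisons, and ELF3 2.02-fold, 1.79-fold and 5.26-fold higher, the last of these 4.98-fold with 1 control array raised to background. At 12 h and 24 h with 30 µM zoledronate all 3 stayed within 0.11 of control on the log2 scale.

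At 24 h AGR2, the disulfide isomerase relative, read 7.65, 6.38, 7.49 and 7.28 in fluvastatin-treated cells, against 4.56, 4.96, 6.01 and 5.83 in control cells. All 4 treated arrays lay above all 4 control arrays, and the mean was 7.20 ± 0.57 in fluvastatin-treated cells and 5.34 ± 0.69 in control cells (SD, n = 4 each). The difference was 1.86 ± 0.28 (SE of the fit). Pair by pair it was 3.09, 1.41, 1.48 and 1.46, so the pair of replicate 1 stood above the other 3. Only 2 of the 4 control arrays exceeded the background level of their own array. With the other 2 raised to that level, the fold became 2.84 in place of 3.63.

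With 30 µM zoledronate for 48 h, AGR2 read 6.48, 8.54, 6.65 and 6.64 in treated cells, against 4.90, 5.47, 5.77 and 6.03 in control cells. Every treated array was above every control array, but replicate 2 was far above the other 3 treated arrays. The mean was 7.08 ± 0.98 in treated cells and 5.54 ± 0.48 in control cells (SD, n = 4 each), a difference of 1.53 ± 0.28. Without replicate 2 the difference was 1.02. With 2 control arrays raised to background, the fold was 2.55.

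With 100 µM zoledronate for 24 h, AGR2 read 6.79, 7.74, 7.56 and 7.78 in treated cells, against 4.61, 4.70, 4.98 and 5.63 in control cells. The groups were separate, and no pair differed by less than 2.15. Means were 7.47 ± 0.46 in treated cells and 4.98 ± 0.46 in control cells (SD, n = 4 each), a difference of 2.49 ± 0.28. Of the control arrays only 1 exceeded background, and with the other 3 raised to it the fold was 3.48 in place of 5.61.

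In the early groups AGR2 differed little. After 12 h it read 4.65, 5.40, 5.25 and 5.76 in fluvastatin-treated cells, against 4.46, 5.33, 4.84 and 5.33 in control cells, a difference of 0.27 ± 0.28. The treated array was higher in 4 of 4 pairs, yet the groups overlapped and both were near background. After 24 h with 30 µM zoledronate AGR2 read 4.80, 5.29, 5.86 and 5.86, against 4.56, 4.96, 6.01 and 5.83 in control cells, a difference of 0.11 ± 0.28, and at 12 h the difference was -0.05 ± 0.28. These groups overlapped at both times.

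**Figure D1:**
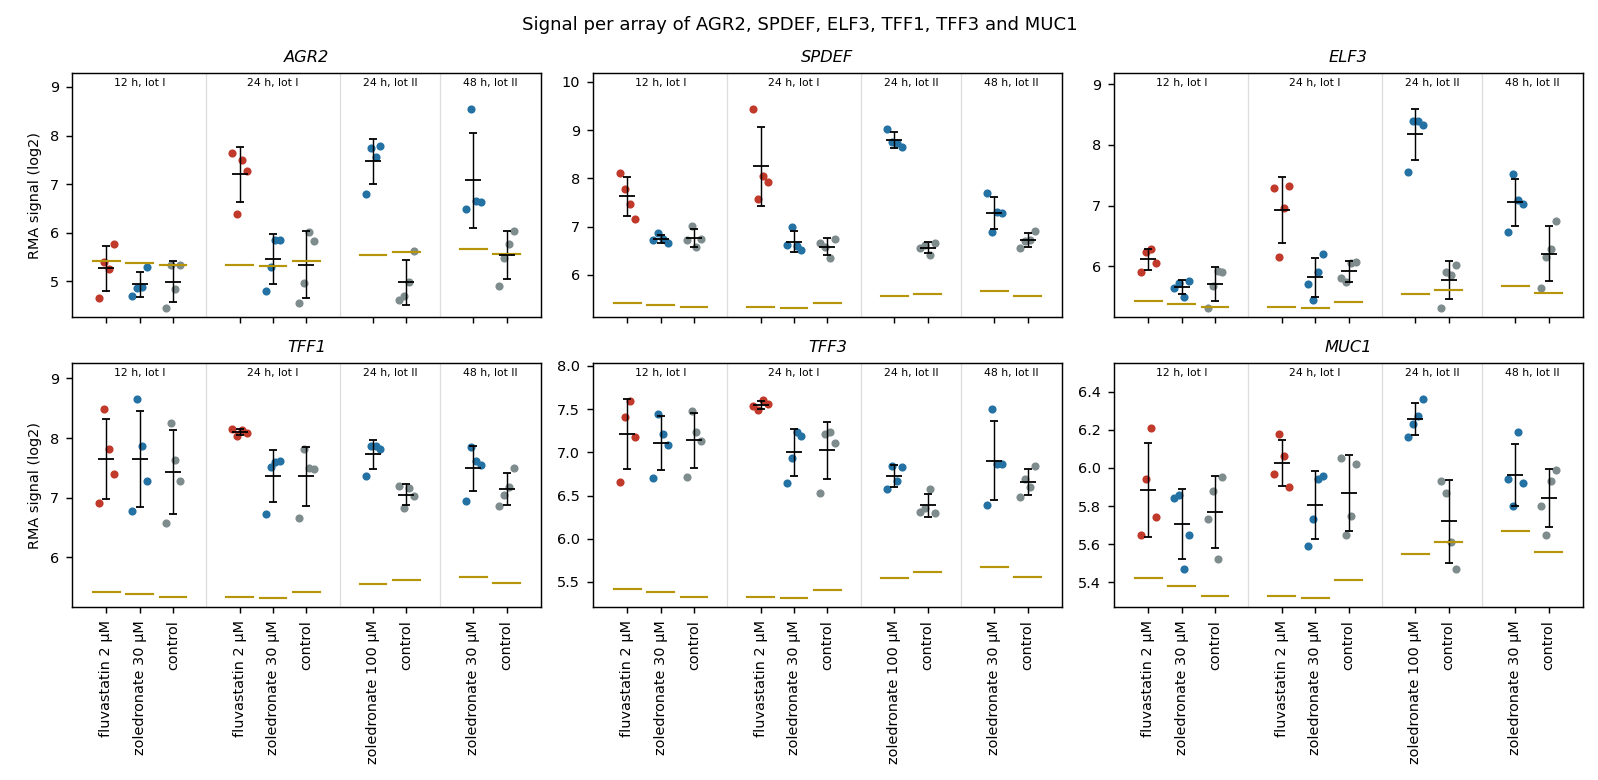
Log2 RMA signal of AGR2, SPDEF, ELF3, TFF1, TFF3 and MUC1 on each array (vertical axis) by group (horizontal axis, treated groups left of their control). Points are arrays, bars are group means with SD (n = 4), and the gold line is the 95th percentile of 341 olfactory receptor genes in that group. The mean of AGR2 stands under the gold line in the 4 control groups and between 7.08 and 7.47 in 3 treated groups.

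SPDEF, the ETS factor, was the one member whose groups were separate already at 12 h. It read 8.10, 7.77, 7.47 and 7.16 in cells given fluvastatin for 12 h, against 6.72, 7.01, 6.58 and 6.74 in control cells. The lowest treated array was above the highest control array, with means of 7.62 ± 0.40 in treated cells and 6.76 ± 0.18 in control cells (SD, n = 4 each). The difference of 0.86 ± 0.22 is 1.82-fold, and pair by pair it was 1.38, 0.76, 0.89 and 0.43. It was not among the genes called at the 0.05 threshold over 18417 genes, and became one when the dimmest genes were left out and 12278 tested.

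After 24 h SPDEF read 9.43, 7.57, 8.05 and 7.93 in fluvastatin-treated cells, against 6.65, 6.58, 6.35 and 6.75 in control cells. The groups were separate and replicate 1 was again the highest treated array. The difference was 1.66 ± 0.22, and 1.29 without replicate 1.

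With zoledronate, SPDEF read 7.69, 6.88, 7.30 and 7.28 in cells given 30 µM for 48 h, against 6.55, 6.70, 6.72 and 6.91 in control cells. The treated array was higher in 4 of 4 pairs, but replicate 2 of the treated cells fell below the highest control array. The difference was 0.57 ± 0.22, and 0.37 without replicate 1. With 100 µM for 24 h, SPDEF read 9.03, 8.76, 8.73 and 8.65 in treated cells, against 6.56, 6.62, 6.40 and 6.66 in control cells. These groups were separate and tight, at 8.79 ± 0.17 in treated cells and 6.56 ± 0.11 in control cells (SD, n = 4 each), a difference of 2.23 ± 0.22. At 30 µM the differences were -0.01 ± 0.22 at 12 h and 0.10 ± 0.22 at 24 h.

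ELF3, the second ETS factor, read 7.29, 6.15, 6.96 and 7.32 in cells given fluvastatin for 24 h, against 5.80, 5.74, 6.05 and 6.07 in control cells. The groups were separate, with replicate 2 of the treated cells closest to control. The difference was 1.01 ± 0.15, against 0.41 ± 0.15 at 12 h, where the treated array was higher in 4 of 4 pairs and the groups overlapped.

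With 30 µM zoledronate for 48 h, ELF3 read 6.57, 7.52, 7.09 and 7.03 in treated cells, against 5.64, 6.16, 6.29 and 6.75 in control cells. The groups overlapped at 1 array each, and all 4 pairs were higher in treated cells, by 0.93, 1.37, 0.80 and 0.28. With 100 µM for 24 h, ELF3 read 7.55, 8.40, 8.40 and 8.33 in treated cells, against 5.32, 5.91, 5.85 and 6.02 in control cells. These groups were separate by more than 1 log2 unit, and the difference was 2.40 ± 0.15. At 30 µM the differences were -0.05 ± 0.15 at 12 h and -0.10 ± 0.15 at 24 h.

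The secreted trefoil peptides moved less. TFF1 read 8.15, 8.03, 8.14 and 8.09 in cells given fluvastatin for 24 h, against 6.65, 7.81, 7.50 and 7.48 in control cells. All treated arrays lay above all control arrays, and within a narrow range, whereas control replicate 1 was low. The difference was 0.74 ± 0.15, with pairs at 1.50, 0.22, 0.64 and 0.61, and was 0.49 without replicate 1.

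With 100 µM zoledronate TFF1 read 7.36, 7.86, 7.87 and 7.82 in treated cells, against 7.20, 6.82, 7.16 and 7.02 in control cells. The groups were separate and replicate 1 of the treated cells was the lowest. The difference was 0.68 ± 0.15. After 30 µM for 48 h it was 0.35 ± 0.15, with pairs at 0.09, 0.81, 0.45 and 0.05, and was 0.20 without replicate 2. After 12 h it was 0.21 ± 0.15 with either drug. At 12 h TFF1 followed the replicate number: replicate 1 was the lowest and replicate 2 the highest of each group, at 6.90 and 8.49 with fluvastatin, 6.77 and 8.65 with 30 µM zoledronate and 6.57 and 8.26 in control cells.

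TFF3 read 7.53, 7.49, 7.60 and 7.56 in cells given fluvastatin for 24 h, against 6.53, 7.21, 7.24 and 7.11 in control cells. As for TFF1, the treated arrays were close together and all above the control arrays, of which replicate 1 was the lowest. The difference was 0.52 ± 0.12. With 100 µM zoledronate TFF3 read 6.57, 6.84, 6.67 and 6.83 in treated cells, against 6.31, 6.36, 6.58 and 6.30 in control cells, a difference of 0.34 ± 0.12. Here the groups overlapped, with treated replicate 1 just under control replicate 3. TFF1 and TFF3 were called in both of these comparisons with the replicate pairs as a block and in neither without it.

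MUC1, the cell surface mucin, read 6.16, 6.23, 6.27 and 6.36 in cells given 100 µM zoledronate, against 5.93, 5.87, 5.61 and 5.47 in control cells. The groups were separate, and the difference was 0.53 ± 0.13. In the other 5 comparisons the differences of MUC1 lay between -0.06 and 0.16 and the groups overlapped.

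**Figure D2:**
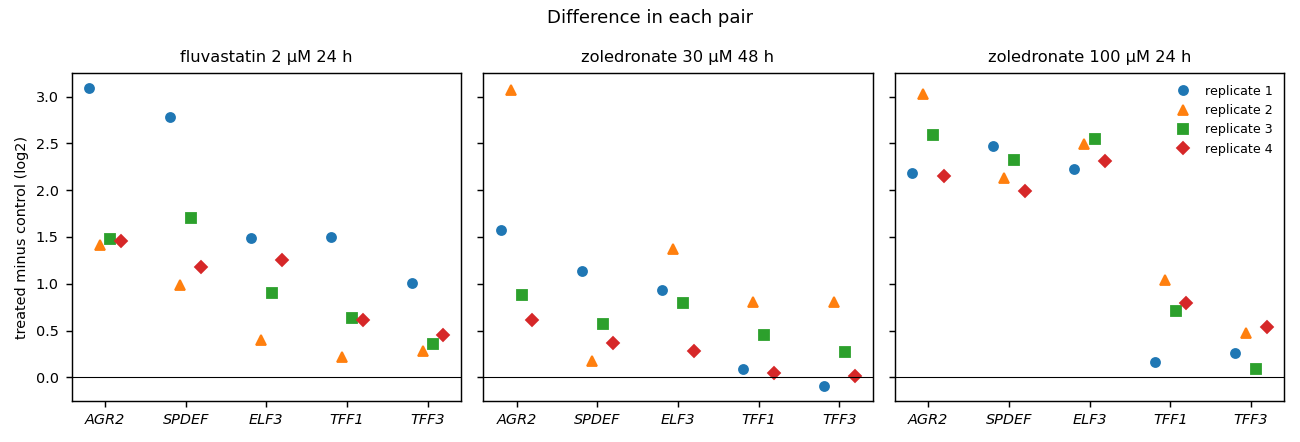
Treated minus control difference in log2 signal of each replicate pair (vertical axis) for AGR2, SPDEF, ELF3, TFF1 and TFF3 (horizontal axis), with a panel each for fluvastatin at 24 h, 30 µM zoledronate at 48 h and 100 µM zoledronate at 24 h. Points are the 4 pairs, marked by replicate number, and 0 is no difference. Replicate 1 gives the largest pair difference of AGR2, SPDEF, ELF3, TFF1 and TFF3 after fluvastatin at 24 h.

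In the 24 h fluvastatin comparison the pair of replicate 1 gave the largest difference of AGR2, SPDEF, ELF3, TFF1 and TFF3 alike. After 48 h of 30 µM zoledronate the pair of replicate 2 gave the largest difference of AGR2, ELF3, TFF1 and TFF3, at 3.07, 1.37, 0.81 and 0.81. For SPDEF that same pair gave the smallest, at 0.18. The pairs of TFF3 at 48 h were -0.09, 0.81, 0.27 and 0.02. Their mean was 0.25, the groups overlapped and TFF3 was not called. The cause of these shared pair differences was not tested.

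The remaining members are the luminal transcription factors and AGR3, and none of them was called in any of the 6 comparisons. FOXA1, the pioneer factor, averaged between 7.05 and 7.47 in the 10 groups, with differences from -0.08 to 0.17 (SE 0.08). GATA3 averaged between 6.10 and 6.58, with differences from -0.07 to -0.01 (SE 0.08). Treated and control arrays overlapped for both genes in all 6 comparisons. ESR1 averaged between 4.80 and 5.09, and AGR3, the neighbour and paralog of AGR2, between 2.59 and 2.97.

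For ESR1 the treated arrays lay above the control arrays after 100 µM zoledronate, at 4.93, 4.89, 5.08 and 4.94 in treated cells, against 4.77, 4.70, 4.84 and 4.88 in control cells. The difference was 0.17 ± 0.14, and both groups were near background. These and all other ESR1 values come from the brighter of its probe sets. A second probe set annotated to ESR1, which carries its RefSeq transcripts, was also near background. It differed by -0.06 in the same comparison with overlapping groups. For AGR3 the differences ran from 0.02 to 0.27 (SE 0.11), and signals at this level say little about transcript amounts.

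**Figure D3:**
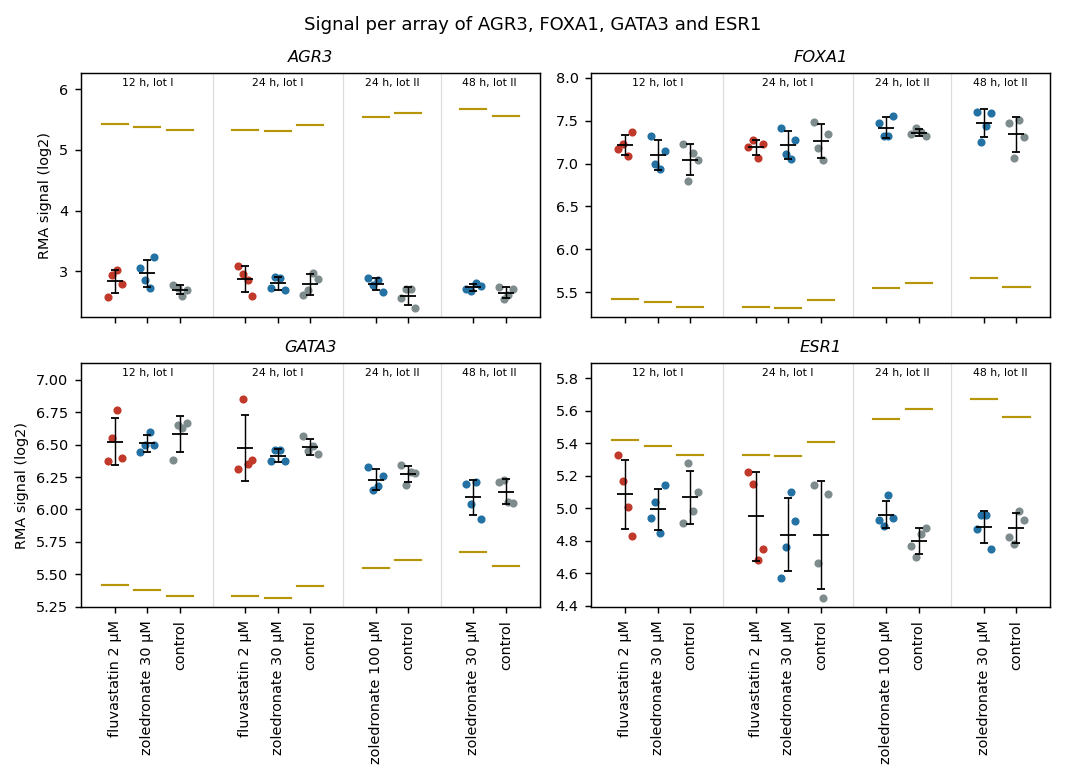
Log2 RMA signal of FOXA1, GATA3, ESR1 and AGR3 on each array (vertical axis) by group (horizontal axis, treated groups left of their control). Points are arrays, bars are group means with SD (n = 4), and the gold line is the 95th percentile of 341 olfactory receptor genes in that group. FOXA1 and GATA3 stay above the line in all groups, and ESR1 and AGR3 below it.

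Counted over the set at an adjusted p of 0.05 (limma moderated test, Benjamini-Hochberg over 18417 genes), no member was called lower in any comparison. After fluvastatin for 12 h, 0 of 10 members were called higher, when 0.348% of all genes were, and after 24 h 5 of 10, when 6.71% of all genes were. After 30 µM zoledronate for 48 h, 2 of 10 members were called higher, when 3.16% of all genes were. After 100 µM for 24 h, 6 of 10 were, when 15.3% of all genes were. With 30 µM at 12 h and at 24 h no gene on the array was called, so 0% of all genes. There 511 and 866 of the 18417 genes had an unadjusted p under 0.05. Both are below the share of 0.05 that chance alone gives. When each comparison was fitted on its own arrays alone, no member was called after fluvastatin at 24 h or after 48 h of zoledronate, and 6 were after 100 µM. The share of all genes called in those fits is not given here, so the members cannot be set beside it. Nothing is read from these counts, as the members were chosen on these contrasts.

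The median difference over the 10 members was 0.15 and 0.34 after fluvastatin at 12 h and 24 h. It was -0.04, -0.01 and 0.19 after 30 µM zoledronate at 12 h, 24 h and 48 h, and 0.44 after 100 µM. The medians over all genes lay between -0.01 and 0.01. Treated arrays were all above control arrays for 1 of 10 members after fluvastatin at 12 h and 5 of 10 at 24 h, and for 1 of 10 and 6 of 10 in the 48 h and 100 µM zoledronate comparisons. These 6 are not the 6 called after 100 µM. They hold ESR1, near background and not called, and lack TFF3, which was called. The shares of all genes with that pattern were 2.45%, 4.61%, 3.93% and 15.6%.

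**Figure D4:**
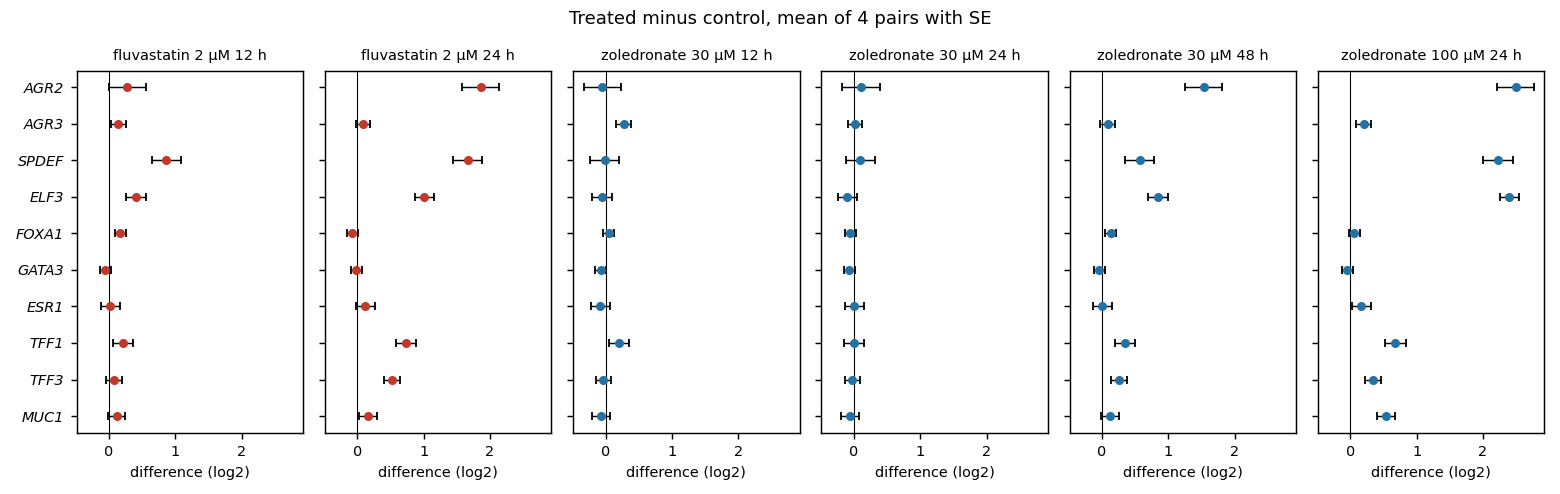
Treated minus control difference in log2 signal (horizontal axis, mean with SE of the fit) of the 10 members in the 6 comparisons. AGR2, SPDEF and ELF3 lie farthest right after fluvastatin at 24 h and after 100 µM zoledronate, and FOXA1 and GATA3 lie near 0 in all 6.

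The control groups were also set against each other. Every control array had entered the choice of the genes through the treated minus control differences, so the tests of members given here are not independent of that choice. Between 24 h and 12 h in lot I, 0 of 10 members were called, as were 0% of all genes. An unadjusted p under 0.05 was found for 853 genes, again below the share of 0.05 that chance alone gives. AGR2 differed by 0.35 ± 0.36 (limma, adjusted p = 1). Between 48 h and 24 h in lot II, 0 of 10 members were called, when 1.02% of all genes were. The differences of AGR2, 0.56 ± 0.36 (limma, adjusted p = 0.552), and ELF3, 0.43 ± 0.22 (limma, adjusted p = 0.42), did not pass. No member was therefore shown to change with time in control cells alone. Of the lists described further on, 1 gene passed over that step, XBP1, a factor of secretory cells, which was 0.87 ± 0.20 higher at 48 h (limma, adjusted p = 0.0191). It was 1 of 36 identity genes, when 1.02% of all genes were called, and the other lists held no called gene. XBP1 was not called without replicate 2, 3 or 4, with adjusted p-values of 0.175, 0.473 and 0.415.

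Between lot II and lot I at 24 h, 15.7% of all genes were called, and 1 of 10 members was. TFF3 was lower in lot II by -0.64 ± 0.19 (limma, adjusted p = 0.0173), with 6.31, 6.36, 6.58 and 6.30 in lot II control cells, against 6.53, 7.21, 7.24 and 7.11 in lot I control cells. The groups overlapped through replicate 1 of lot I, and without replicate 2, 3 or 4 the gene was not called, with adjusted p-values of 0.0848, 0.109 and 0.124. Among genes of the lists described further on, 5 were lower and 7 higher in lot II. Lower were 3 of 36 identity genes and 2 of 36 mucus and secretion genes. Higher were 1 of 36 mucus and secretion genes, 2 of 19 disulfide isomerases and 4 of 17 mesenchymal and basal markers. Of 9 blood cell markers and of 10 fibroblast and endothelial markers 0 were called, when 15.7% of all genes were. CLDN4, KRT8, FOXA3, TFF2 and SPINT2 were lower, by -0.61 ± 0.12, -0.47 ± 0.09, -0.56 ± 0.10, -0.72 ± 0.24 and -0.38 ± 0.12 (limma, adjusted p = 0.000396, 0.000596, 0.000196, 0.0389 and 0.0291). The mesenchymal and basal genes CD44, FN1, ZEB1 and KRT14 were higher, by 0.31 ± 0.09, 0.46 ± 0.16, 0.23 ± 0.08 and 0.58 ± 0.14 (limma, adjusted p = 0.0214, 0.0482, 0.0445 and 0.00417). SLC12A2, an ion transporter, and the disulfide isomerases TMX3 and DNAJC10 were also higher, by 0.33 ± 0.10, 0.30 ± 0.10 and 0.26 ± 0.09 (limma, adjusted p = 0.018, 0.0309 and 0.0378). Of these 12 genes CLDN4, KRT8 and FOXA3 were called whichever replicate was left out, and KRT14 lost its call without replicate 3 (0.42, adjusted p = 0.107). The other 8 each lost their calls without at least 3 of the 4 replicates, with adjusted p-values from 0.0685 to 0.297. CD44, FN1, ZEB1, TMX3 and DNAJC10 also lost them with median centring. Because lot II holds all arrays of the 48 h and 100 µM zoledronate comparisons, time and dose cannot be told apart from lot where these are set beside the 12 h and 24 h comparisons.

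The surrounding programme was read from 3 lists that hold none of the 10 members. These lists, and the marker lists further on, were drawn up with earlier results of these data known. Their counts and p-values are therefore given as a description, also in the control comparisons above. Of 40 genes of luminal and epithelial identity, 36 were measured. After fluvastatin for 12 h, 1 of 36 rose and 0 fell, when 0.348% of all genes rose and 0.527% fell, and the riser was CLDN4, a claudin of tight junctions, at 0.69 ± 0.11 (limma, adjusted p = 0.00469). Without replicate 1 or replicate 3 CLDN4 did not pass, with adjusted p-values of 0.052 and 0.118.

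After fluvastatin for 24 h, 7 of 36 identity genes rose and 0 fell, when 6.71% of all genes rose and 3.77% fell. TFAP2C, a transcription factor of luminal breast cells, rose by 0.54 ± 0.09 (limma, adjusted p = 0.000596). KRT19, a simple epithelial keratin, rose by 0.72 ± 0.16 (adjusted p = 0.00439), though by 0.41 with an adjusted p of 0.105 without replicate 1. SPINT2, a membrane protease inhibitor, rose by 0.43 ± 0.10 (adjusted p = 0.00589), though by 0.26 with an adjusted p of 0.086 without replicate 1, and CLDN4 by 0.49 ± 0.11 (adjusted p = 0.00703). KRT8 rose by 0.27 ± 0.08 (adjusted p = 0.0388). Its partner KRT18 differed by -0.07 ± 0.08, CDH1 by -0.06 ± 0.11 and EPCAM, the epithelial adhesion molecule, by 0.12 ± 0.17, with adjusted p-values of 0.631, 0.802 and 0.725. The list's median was 0.06, against -0.01 over all genes, and 29 of 36 were not called. Without replicate 1 only TFAP2C of the 7 was called, and without the replicate block KRT8, CLDN7 and MLPH were not.

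After 30 µM zoledronate for 48 h, 4 of 36 identity genes rose and 0 fell, when 3.16% of all genes rose and 4.43% fell. MLPH, which links melanosomes and secretory granules to the actin motor, rose by 0.50 ± 0.09 (limma, adjusted p = 0.00183). KRT8 rose by 0.35 ± 0.08 (adjusted p = 0.0124), TFAP2C by 0.36 ± 0.09 (adjusted p = 0.0147) and KRT19 by 0.50 ± 0.16 (adjusted p = 0.0471). EPCAM differed by -0.53 ± 0.17 and missed the threshold (adjusted p = 0.0566). KRT18 and CDH1 differed by 0.09 ± 0.08 and -0.11 ± 0.11 (adjusted p = 0.59 and 0.637). Without replicate 1 or replicate 3 only MLPH of the 4 was called, and without the block KRT19 and TFAP2C were not (adjusted p = 0.141 and 0.13).

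After 100 µM zoledronate, 10 of 36 identity genes rose and 3 fell, when 15.3% of all genes rose and 16.6% fell. KRT19 rose by 1.55 ± 0.16 (limma, adjusted p = 4.91e-08), CLDN7 by 1.35 ± 0.14 (adjusted p = 6.28e-08) and MLPH by 0.79 ± 0.09 (adjusted p = 3.7e-07). KRT7, another simple epithelial keratin, fell by 0.62 ± 0.07 (adjusted p = 5.69e-07). KRT8 rose by 0.55 ± 0.08 (adjusted p = 1.24e-05). KRT18 differed by -0.07 ± 0.08, CDH1 by 0.07 ± 0.11 and EPCAM by -0.35 ± 0.17, and none of these passed (adjusted p = 0.595, 0.71 and 0.13). The median of the list was 0.08, against 0.01 over all genes.

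Of 38 mucus and secretion genes, 36 were measured, and none was called after fluvastatin at 12 h. After fluvastatin at 24 h, 3 of 36 rose and 2 fell, when 6.71% of all genes rose and 3.77% fell. TFF2, the third trefoil peptide, which lies between TFF3 and TFF1, rose by 0.66 ± 0.10 (limma, adjusted p = 0.000285), with an adjusted p of 0.134 without the replicate block. MUC15, a membrane mucin, rose by 0.73 ± 0.17 (adjusted p = 0.00702), and TSPAN8, a tetraspanin of epithelia, by 0.61 ± 0.16 (adjusted p = 0.0163, and 0.346 without the block). TSPAN8 differed by 0.40 without replicate 1 (adjusted p = 0.325). GCNT3, a mucin O-glycan enzyme, fell by 0.35 ± 0.10 (adjusted p = 0.0338), with a difference of -0.20 without replicate 1 (adjusted p = 0.497), and FOXA3, a goblet cell factor in mouse airway, by 0.28 ± 0.08 (adjusted p = 0.034, and 0.131 without the block). Without replicate 1 only TFF2 of the 5 was called.

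After 30 µM zoledronate for 48 h, 3 of 36 mucus and secretion genes rose and 0 fell, when 3.16% of all genes rose and 4.43% fell. They were TFF2 at 0.58 ± 0.10 (limma, adjusted p = 0.00119, and 0.248 without the block), TSPAN8 at 0.67 ± 0.16 (adjusted p = 0.0122, and 0.346 without the block) and MUC5B, a gel-forming mucin, at 0.51 ± 0.15 (adjusted p = 0.0371, and 0.144 without the block). Without replicate 2 MUC5B differed by 0.22 (adjusted p = 0.205). It was also not called without replicate 1 (0.57, adjusted p = 0.125) or replicate 3 (0.58, adjusted p = 0.0941). TSPAN8 was not called without replicate 3 (0.54, adjusted p = 0.133). After 100 µM, 8 of 36 rose and 2 fell, when 15.3% of all genes rose and 16.6% fell. MUC5B rose by 0.97 ± 0.15 (adjusted p = 1.67e-05), TSPAN8 by 1.03 ± 0.16 (adjusted p = 1.82e-05), FOXA2, a paralog of FOXA1, by 0.46 ± 0.08 (adjusted p = 4.25e-05) and TFF2 by 0.58 ± 0.10 (adjusted p = 7.14e-05, and 0.0855 without the block). The list's medians were -0.03, 0.13 and 0.03 in the 24 h fluvastatin, 48 h and 100 µM zoledronate comparisons.

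AGR2 and AGR3 belong to the protein disulfide isomerase family, of which 19 of 21 further genes were measured. None was called after fluvastatin at either time. After 48 h of 30 µM zoledronate 1 of 19 rose and 2 fell, when 3.16% of all genes rose and 4.43% fell. P4HB, the founding isomerase, rose by 0.16 ± 0.05 (limma, adjusted p = 0.0406), whereas TXNDC12, the closest relative of AGR2 and AGR3, fell by 0.22 ± 0.06 (adjusted p = 0.0168) and TMX2 by 0.24 ± 0.07 (adjusted p = 0.0398). None of these 3 was called without the replicate block, with adjusted p-values of 0.193, 0.0747 and 0.133, or when replicate 1, 3 or 4 was left out. After 100 µM 0 of 19 rose and 5 fell, when 15.3% of all genes rose and 16.6% fell. Among the 5, TMX2 fell by 0.51 ± 0.07 (adjusted p = 5.61e-06), TXNDC12 by 0.38 ± 0.06 (adjusted p = 9.13e-06), PDIA6 by 0.16 ± 0.04 (adjusted p = 0.00713, and 0.0857 without the block) and TMX3 by 0.31 ± 0.09 (adjusted p = 0.00756). PDIA6 was also not called without replicate 1, 3 or 4 (adjusted p = 0.0553, 0.0546 and 0.0694) or on the arrays of that comparison alone (0.0897). With new quantile normalization it differed by -0.07 (adjusted p = 0.302). After fluvastatin for 24 h TXNDC12 differed by 0.03 ± 0.06 (adjusted p = 0.831).

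**Figure D5:**
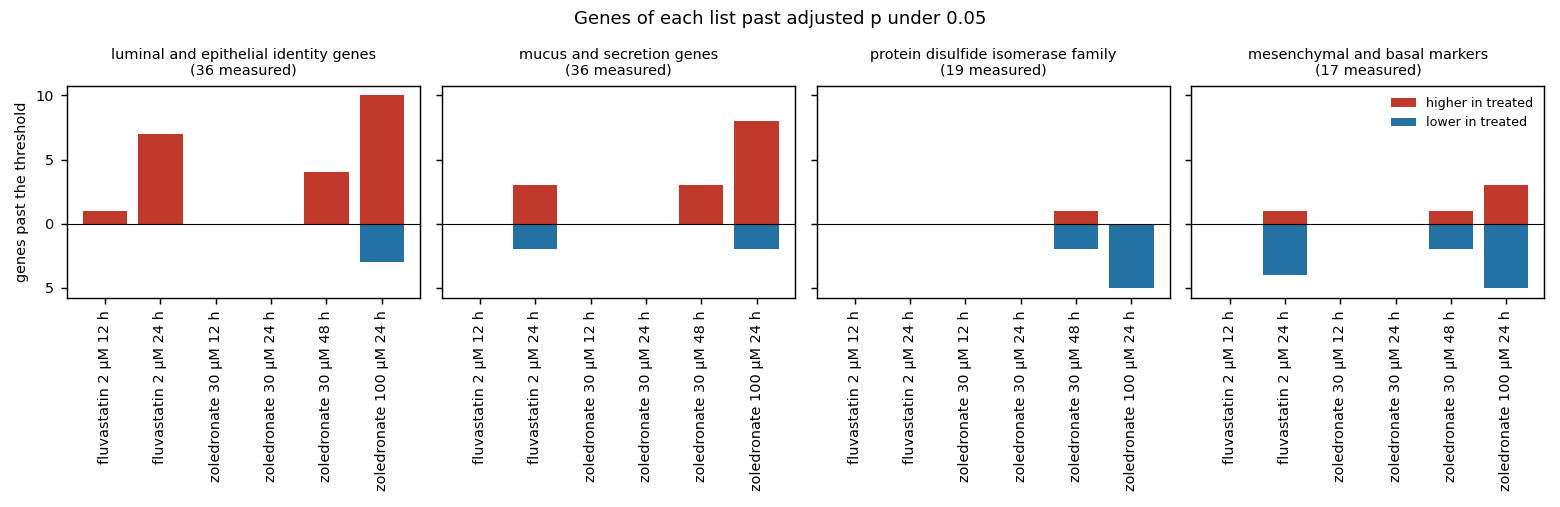
Number of genes called higher (red, upward) or lower (blue, downward) in treated cells (vertical axis; limma, adjusted p under 0.05) by comparison (horizontal axis), with a panel for each of 4 lists headed by its number of measured genes. None of the 4 lists has a gene called with 30 µM zoledronate at 12 h or 24 h. The lists differ in size, so bar heights are not shares. After 100 µM zoledronate, 10 of 36 identity genes were higher and 3 lower. Of 17 mesenchymal and basal markers 3 were higher and 5 lower, when 15.3% of all genes were higher and 16.6% lower.

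Of 21 mesenchymal and basal markers, 17 were measured. After fluvastatin at 24 h, 1 of 17 rose and 4 fell, when 6.71% of all genes rose and 3.77% fell. FN1, fibronectin, rose by 0.51 ± 0.11 (limma, adjusted p = 0.00411), and AXL, a receptor kinase, fell by 0.50 ± 0.08 (adjusted p = 0.000288). SNAI2, a repressor of epithelial genes, fell by 0.44 ± 0.10 (adjusted p = 0.00749, and 0.372 without the block), and CDH2, N-cadherin, by 0.36 ± 0.10 (adjusted p = 0.0183, and 0.0746 without the block), to a level near background in treated cells. FN1 differed by 0.32 without replicate 1 (adjusted p = 0.0945) and had an adjusted p of 0.0757 without the block. Of the 5 genes only AXL was called without the block or without replicate 1, and none was when this comparison was fitted on its own arrays alone, where AXL had an adjusted p of 0.0883. After 48 h of 30 µM zoledronate, 1 of 17 rose and 2 fell, when 3.16% of all genes rose and 4.43% fell, with FN1 at 0.66 ± 0.11 (adjusted p = 0.00077), AXL lower by -0.31 ± 0.08 (adjusted p = 0.0124) and SNAI2 lower by -0.39 ± 0.10 (adjusted p = 0.0211). Without the block the adjusted p was 0.198 for AXL and 0.506 for SNAI2. Without replicate 3 only FN1 was called, and on the arrays of that comparison alone none of the 3 was.

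After 100 µM zoledronate, 3 of 17 mesenchymal and basal markers rose and 5 fell, when 15.3% of all genes rose and 16.6% fell. Without the block 5 of these 8 were called, the 4 named next among them. SNAI2 fell by 1.49 ± 0.10 (limma, adjusted p = 2.71e-10), AXL by 0.73 ± 0.08 (adjusted p = 8.17e-08) and CAV1, caveolin, by 0.51 ± 0.10 (adjusted p = 0.000379), while FN1 rose by 1.18 ± 0.11 (adjusted p = 1.55e-08). VIM differed by 0.02 ± 0.07, -0.02 ± 0.07 and 0.14 ± 0.07 in the 24 h fluvastatin, 48 h and 100 µM comparisons, and the surface receptor CD44 by 0.14 ± 0.06, -0.03 ± 0.06 and -0.01 ± 0.06. Neither passed in any of the 3 (limma, adjusted p of 0.93, 0.9 and 0.186 for VIM and 0.148, 0.799 and 0.932 for CD44). The log2 of the summed linear signals of the 17 genes was 13.95 to 14.22 in cells given fluvastatin for 24 h and 14.03 to 14.16 in control cells, 14.08 to 14.31 in 48 h zoledronate-treated cells and 14.24 to 14.29 in control cells, and 14.27 to 14.34 in 100 µM zoledronate-treated cells and 14.24 to 14.32 in control cells.

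Markers of other cell types also moved in these cultures of one cell line. Of 9 blood cell markers, 2 rose after fluvastatin at 24 h (CD14 and LYZ), 1 after 48 h of 30 µM zoledronate (LYZ) and 3 after 100 µM (CD14, CD68 and LYZ), when 6.71%, 3.16% and 15.3% of all genes rose. LYZ, lysozyme, which secretory epithelia also make, was near background in 9 of 10 groups. It averaged 5.09 in cells given fluvastatin for 24 h and 4.38 in control cells, 4.96 in 48 h zoledronate-treated cells and 4.23 in control cells, and 5.88 in 100 µM zoledronate-treated cells and 3.95 in control cells. Of these 6 groups only the one given 100 µM was above background, so no fold is given. Without replicate 1 neither CD14 (0.33, adjusted p = 0.182) nor LYZ (adjusted p = 0.186) was called after fluvastatin at 24 h. LYZ was not called at 48 h without replicate 1, 3 or 4, nor CD14 after 100 µM without replicate 2 or 3. The log2 of the list's summed signal was 10.43 to 10.87 in cells given fluvastatin for 24 h and 10.27 to 10.35 in control cells, 10.38 to 10.90 in 48 h zoledronate-treated cells and 10.22 to 10.61 in control cells, and 10.63 to 10.74 in 100 µM zoledronate-treated cells and 10.13 to 10.23 in control cells. CD68 averaged 9.84 to 10.39 and CD14 5.77 to 6.52, both above background in all 10 groups, control groups included. The pan-leukocyte gene PTPRC and the T cell gene CD3E were near background in all 10 groups.

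Of 10 fibroblast and endothelial markers, 1 rose after fluvastatin at 24 h and 1 after 48 h of zoledronate, in both cases PECAM1, an endothelial adhesion molecule, and 2 rose and 1 fell after 100 µM. The shares of all genes that rose were 6.71%, 3.16% and 15.3%, and 16.6% fell after 100 µM. PECAM1 rose by 0.98 ± 0.16 (limma, adjusted p = 0.000561), 0.59 ± 0.16 (adjusted p = 0.0232) and 1.30 ± 0.16 (adjusted p = 7.16e-07) in the 3 comparisons. In the last it was near background in control cells, at 5.53, so the size of that difference is uncertain, and after 48 h it was not called without replicate 2 or 3 (adjusted p = 0.0638 and 0.102). PDGFRB, a receptor kinase of fibroblasts and pericytes, rose by 0.48 ± 0.11 after 100 µM (adjusted p = 0.00134), and KDR, a receptor for VEGF, fell by 0.51 ± 0.10 (adjusted p = 0.00027). The log2 of the summed signal was 9.12 to 9.34 in fluvastatin-treated cells at 24 h and 9.10 to 9.16 in control cells, 9.18 to 9.29 in 48 h zoledronate-treated cells and 9.02 to 9.14 in control cells, and 9.19 to 9.31 in 100 µM zoledronate-treated cells and 9.04 to 9.12 in control cells. In lot II control cells at 24 h 4 of the 10 markers were above background. In every other group 5 of 10 were, PECAM1 among them. The endothelial genes VWF and CDH5 were near background in all 10 groups. The part of all these markers in the members' differences was not tested.

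The genes most like AGR2 over the 24 paired differences, by Pearson's r across all 6 comparisons, were CD96 (0.952), SERPINB1 (0.949), PLD1 (0.948), MVP (0.946) and LTBP3 (0.942). Those most like SPDEF were AKR1C1 (0.966), RHOB (0.951), AKR1C3 (0.946), CCDC69 (0.943) and MYADM (0.942). AGR2 and SPDEF themselves reached 0.765 with each other. The 24 points share control arrays in lot I and mix comparisons with large and small differences, so these are descriptions of likeness only. AKR1C1 and AKR1C3 are closely related paralogs whose probes can share signal.

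RHOB, a small GTPase, differed by 1.48, 1.74, 0.10, 0.37, 1.11 and 3.01 (SE 0.21) in the order fluvastatin 12 h and 24 h, 30 µM zoledronate 12 h, 24 h and 48 h, and 100 µM zoledronate. SPDEF in the same order differed by 0.86, 1.66, -0.01, 0.10, 0.57 and 2.23, and was not called at 12 h of fluvastatin. The others most like SPDEF, AKR1C1, AKR1C3, CCDC69 and MYADM, differed by 1.07, 0.76, 0.31 and 0.25 at 12 h of fluvastatin. MVP, the major vault protein, differed by 0.25, 0.88, -0.09, 0.04, 0.60 and 1.46 (SE 0.17), and AGR2 by 0.27, 1.86, -0.05, 0.11, 1.53 and 2.49. Both had little at 12 h. RHOB and MVP were picked by likeness over these same differences, so the resemblance follows from the choice.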

How the data were processed

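Gene expression was measured in 40 cultures of MDA-MB-231 cells, 4 in each of 10 groups taken from the sample titles. The deposited values are log2 signals per probe set, and per the submitters' processing notes the tools named are Affymetrix Power Tools 1.10.2, RMA and limma. The sources used here state no genome build and do not say if the 2 lots went through RMA as 1 batch. Array medians lay between 6.19 and 6.33. Arrays have no read depth, so the number of arrays limits the precision. Detection calls, slides and scan times were not used here, so no such batch was tested.

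Of 33297 probe sets, 19460 had 1 gene symbol, 1754 had several and 12083 had none in the platform annotation, and 19429 matched RefSeq by gene number. The brightest probe set stood for each of the 769 genes with more than 1, leaving 18417 genes. No other filter on low values was applied, so all 10 members were tested. A linear model over all 40 arrays (limma 3.58.1, R 4.3.3) had 16 replicate blocks (lot, time and replicate number), 6 treated effects which left 18 residual degrees of freedom. Benjamini-Hochberg adjustment ran over all genes with a threshold of 0.05. Control groups were compared without blocks.

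The pairing follows the study's design text. After group means were subtracted, the 2 arrays of a pair correlated at 0.17 to 0.60 in lot I. In the 48 h comparison they ran from -0.30 to 0.55, and in the 100 µM comparison from -0.09 to 0.26. The labels call the replicates independent.

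The members and the gene lists were chosen with earlier results of these data known. All members are named. Of each list, up to 4 called genes per comparison with the smallest p are named, as are KRT8, KRT18, CDH1, EPCAM, VIM, CD44 and TXNDC12 in the 24 h fluvastatin, 48 h and 100 µM comparisons, called or not, and the 5 genes most like AGR2 and SPDEF. The script was tested on simulated data. Alternatives were no replicate block, only the arrays compared, new quantile normalization, median centring, the dimmest genes removed, probe sets averaged within a gene, and each replicate number left out. Background correction could not be varied from summarised values.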

Additional observations from a re-analysis of the deposited data

Results flagged for a closer look

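In each member's 10 groups of 4 arrays, the gap from the highest or lowest array to its neighbour was compared with the group's range. Of 100 such groups 6 had a gap ratio above Dixon's critical value for 4 arrays, and chance alone flags about 1 in 20 groups. AGR2 had 1 high array in cells given 30 µM zoledronate for 48 h, replicate 2 at 8.54, when the other 3 arrays lay between 6.48 and 6.65. ELF3 had 1 low array in cells given 100 µM zoledronate, replicate 1 at 7.55, when the others lay between 8.33 and 8.40. TFF1 was low on the same array, at 7.36 against 7.82 to 7.87 on the other 3, and also in replicate 1 of the 24 h group of 30 µM zoledronate, at 6.72 against 7.52 to 7.61. GATA3 was high in replicate 2 of the 24 h fluvastatin group, at 6.85 against 6.31 to 6.38, and low in replicate 1 of the 12 h control group of lot I, at 6.38 against 6.63 to 6.67.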

How the results depend on the processing

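No count or value below changed its direction under the alternatives tried. The share of all genes called under each alternative is not given here. A changed count below therefore cannot be told apart from a change in calls over all genes. Without the replicate block, the count of members called after fluvastatin at 24 h was 3 in place of 5, of identity genes 4 in place of 7 and of mucus and secretion genes 2 in place of 5. After 48 h of 30 µM zoledronate these were 2 identity genes in place of 4, and 0 mucus and secretion genes and 0 disulfide isomerases in place of 3 each. After 100 µM it was 3 disulfide isomerases in place of 5. Mesenchymal and basal markers called were 1 in place of 5, 1 in place of 3 and 5 in place of 8 in these 3 comparisons. A replicate block in the control comparisons left the count of members at 0 at both time steps, and gives no value for lot II against lot I, since blocks lie within lots. With only the arrays compared, the counts after fluvastatin at 12 h and 24 h and after 48 h of zoledronate were 0 for members, identity, mucus, disulfide isomerase, mesenchymal and basal, blood cell, and fibroblast and endothelial genes.

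With quantile normalization anew, 5 mucus and secretion genes were called after 48 h of zoledronate, and 2 members between lot II and lot I. Median centring also gave 2 members there, TFF3 and GATA3. With the dimmest genes removed, 12278 were left, without AGR2, AGR3, ESR1 and MUC1. SPDEF was then the 1 member called after fluvastatin at 12 h, and after 48 h of zoledronate 1 member, 9 identity and 5 mucus and secretion genes were called. Mesenchymal and basal markers called after fluvastatin at 24 h were then 3, and blood cell markers after 48 h 0. Averaging the probe sets of a gene moved none of these counts by over 1.5 times. The median of all genes moved by at most 0.03 under either scaling.

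Leaving out 1 replicate number at a time, members called ranged from 4 to 5 after fluvastatin at 24 h, stayed at 2 after 48 h of zoledronate, and ranged from 5 to 6 after 100 µM and from 0 to 1 between the lots. Identity genes ranged from 0 to 1 after fluvastatin at 12 h and from 1 to 7 at 24 h, from 1 to 4 after 48 h of zoledronate and from 12 to 14 after 100 µM. Mucus and secretion genes ranged from 1 to 6, from 1 to 3 and from 6 to 10 in the last 3 comparisons, disulfide isomerases from 0 to 1, from 0 to 3 and from 4 to 5, and mesenchymal and basal markers from 1 to 5, from 1 to 2 and from 6 to 7. Without replicate 1 after fluvastatin at 24 h the identity and mucus counts were each 1. The cause of these changes was not tested. TFF3 lost its call after fluvastatin at 24 h without replicate 1 (0.36) and after 100 µM zoledronate without replicate 2 (0.30) or 4 (0.28).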
